A study of Mus musculus with 2 samples.

Results

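The 8 noncoding RNAs described here are Rn7s1 and Rn7s2 (7SL RNA), Rn7sk (7SK RNA), Rpph1 (the RNA of RNase P), Rmrp (the RNA of RNase MRP), Terc (telomerase RNA), Malat1 and Neat1. They were taken by symbol and correspond to 9 of the 55487 gene rows of the count table, since Rmrp is annotated as a pair of overlapping genes. The group was selected on the high counts of such RNAs in these same libraries, so the levels and ratios below are a description. RNA had been sequenced from Langerhans cells, epidermal cells that take up and present antigen, of mice that lack Htr2a (HTR2A-/-), the gene of the serotonin 2A receptor. CD207+ MHC II+ cells had been sorted from enzyme-digested ears and then treated with imiquimod, which activates Toll-like receptor 7, and an agent labelled a-CD40L, over 24 hours. Both samples carry the same genotype and treatment, so they form 1 group of 2 replicates. No age, sex or strain is given in the labels, and nothing there says whether the samples came from separate mice. The series title calls the cells monocyte-derived, whereas the protocol describes cells sorted from skin, and wild-type or untreated cells were not analysed here.

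These RNAs work mostly without being translated, as scaffolds, guides or templates inside ribonucleoprotein particles. RNA polymerase III makes 7SL, 7SK and the RNAs of RNase P and RNase MRP, whereas RNA polymerase II makes telomerase RNA, Malat1 and Neat1 in mammals. 7SL is the backbone of the signal recognition particle, which directs ribosomes making secreted and membrane proteins to the endoplasmic reticulum. 7SK keeps the elongation factor P-TEFb inactive, RNase P trims precursor tRNAs, and RNase MRP cleaves precursor ribosomal RNA. Malat1 collects in nuclear speckles and Neat1 is the scaffold of paraspeckles. Libraries had been made with a stranded kit for total RNA, per the labels, so RNAs without a poly(A) tail could be counted.

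Library 2 held 42264685 counts over 47913 genes and library 1 held 69925160 counts over 43859 genes. Htr2a had 117 counts in library 2 and 77 in library 1. Per kb of exon it stood above 33.3% and 44.4% of 1134 olfactory receptor genes, which served as a background. All 6 Langerhans cell markers exceeded the 95th percentile of that background in both libraries. Their levels summed to 9274 CPM in library 2, against 14519 CPM in library 1 (CPM, counts per 1000000 counts of the library). The lower sum came from Cd74, H2-Aa and H2-Ab1, the MHC II genes of the list, whereas Cd207 had 1052 and 1125 CPM, Epcam 178 and 155 CPM and Cdh1 793 and 481 CPM. Keratinocyte markers (6 of 6 above background) summed to 12458 CPM in library 2, against 3710 CPM in library 1, and T cell markers (4 of 5) to 114 and 187 CPM. Krt15 alone of the keratinocyte markers was lower in library 2 (57.3 against 69.4 CPM). Of the T cell markers, Cd3d, Cd3e, Cd3g and Trdc were lower in library 2 (Cd3g 16.2 against 65.1 CPM), whereas Thy1 was higher (68.3 against 30.9 CPM). No fibroblast or melanocyte marker was above background in both libraries, although none was at 0. The part of these cells in the results below was not tested. Per kb of exon, the olfactory receptor background was itself higher in library 2. Its median was 0.645 CPM in library 2, against 0.221 CPM in library 1, and its 95th percentile 1.58 and 0.761 CPM.

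Several annotated genes hold the same bases as 7SL and 7SK, which bears on how their counts can be read, and the 7SK pair is printed below to show it. Sequences and positions are the annotated transcripts of GENCODE M21 on GRCm38, written 5′ to 3′. Rn7s1 (chr12:69159295-69159594, plus strand) and Rn7s2 (chr12:69361182-69361481, minus strand) are both 300 bases long and identical at all 300. Rn7s6 (chr6:69516339-69516629, plus strand) shares its first 214 bases with them at 98.6% identity.

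Rn7sk (chr9:78175303-78175633, minus strand) has partial copies of the same kind. Gm24447 (chr15:93234363-93234700, plus strand) is identical to it over the first 241 bases, shown in capitals. The first 300 bases of each gene are printed.
Rn7sk: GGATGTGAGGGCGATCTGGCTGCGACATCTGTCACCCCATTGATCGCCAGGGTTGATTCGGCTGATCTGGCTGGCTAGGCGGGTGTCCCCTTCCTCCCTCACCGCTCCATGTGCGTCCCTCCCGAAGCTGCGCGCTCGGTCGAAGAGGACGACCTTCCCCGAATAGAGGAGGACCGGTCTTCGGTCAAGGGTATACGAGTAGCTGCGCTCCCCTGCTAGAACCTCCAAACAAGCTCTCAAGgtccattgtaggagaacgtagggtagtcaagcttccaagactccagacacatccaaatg
Gm24447: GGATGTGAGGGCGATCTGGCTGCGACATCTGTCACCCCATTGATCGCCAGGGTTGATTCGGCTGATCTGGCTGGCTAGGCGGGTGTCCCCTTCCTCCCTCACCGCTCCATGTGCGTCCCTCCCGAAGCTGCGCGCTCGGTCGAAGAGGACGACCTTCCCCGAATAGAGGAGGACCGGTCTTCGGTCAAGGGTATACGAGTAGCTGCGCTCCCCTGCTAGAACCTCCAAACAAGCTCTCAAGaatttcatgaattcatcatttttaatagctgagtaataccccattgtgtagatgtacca

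Terc (chr3:96414437-96414859, minus strand) is printed because it carries the template that telomerase copies. Capitals mark its longest stretch complementary to the telomere repeat TTAGGG, 9 bases at positions 28 to 36, within the first 300 of its 423 bases.
Terc: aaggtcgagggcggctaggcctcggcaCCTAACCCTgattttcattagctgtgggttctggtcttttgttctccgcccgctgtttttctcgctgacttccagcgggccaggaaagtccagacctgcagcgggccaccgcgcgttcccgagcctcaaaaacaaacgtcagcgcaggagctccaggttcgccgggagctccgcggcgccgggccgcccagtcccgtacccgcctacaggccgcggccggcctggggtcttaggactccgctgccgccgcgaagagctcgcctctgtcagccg

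7SL was among the most abundant RNAs of both libraries and, of the 8, had the widest ratio between them. Rn7s2 was at 11914 CPM in library 2, against 21957 CPM in library 1, and averaged 16936 ± 7101 CPM (SD, n = 2). Rn7s1 was at 7784 CPM in library 2, against 14221 CPM in library 1, with a mean of 11002 ± 4552 CPM. Both genes were lower in library 2, by 1.84-fold and 1.83-fold in CPM. In sorted cells measured in bulk, fewer cells of a type and less RNA per cell cannot be told apart. Together they held 1.97% of all counts in library 2 and 3.62% in library 1 (exact binomial intervals 1.966 to 1.974% and 3.613 to 3.622%). Intervals here are at 95% and cover counting error only, and counts of reads without molecular identifiers are not independent molecules. Ranked by CPM, Rn7s2 was in place 5 of all genes in library 2 and place 4 in library 1.

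Since the 300 bases of Rn7s1 and Rn7s2 are identical, their counts cannot be assigned to either gene from sequence within the transcript. Yet the table divided them unevenly and almost alike in each library, with 1.53 counts of Rn7s2 for each of Rn7s1 in library 2 (interval 1.52 to 1.54) and 1.54 in library 1 (interval 1.54 to 1.55). The partial copy Rn7s6 had 60942 counts in library 2 and 184534 in library 1, or 0.0732 and 0.0729 for each count of the pair Rn7s1 and Rn7s2. It was thus a nearly fixed part of 7SL in both libraries. A further partial copy, Gm26461, matched Rn7s1 over 201 bases at 96.5% identity and had 1847 and 5469 counts. Copies over most of the length had few counts. Gm24105, 91.7% identical, had 3 counts in each library, and Gm22876 had 1 in library 2 and 2 in library 1.

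**Figure D1:**
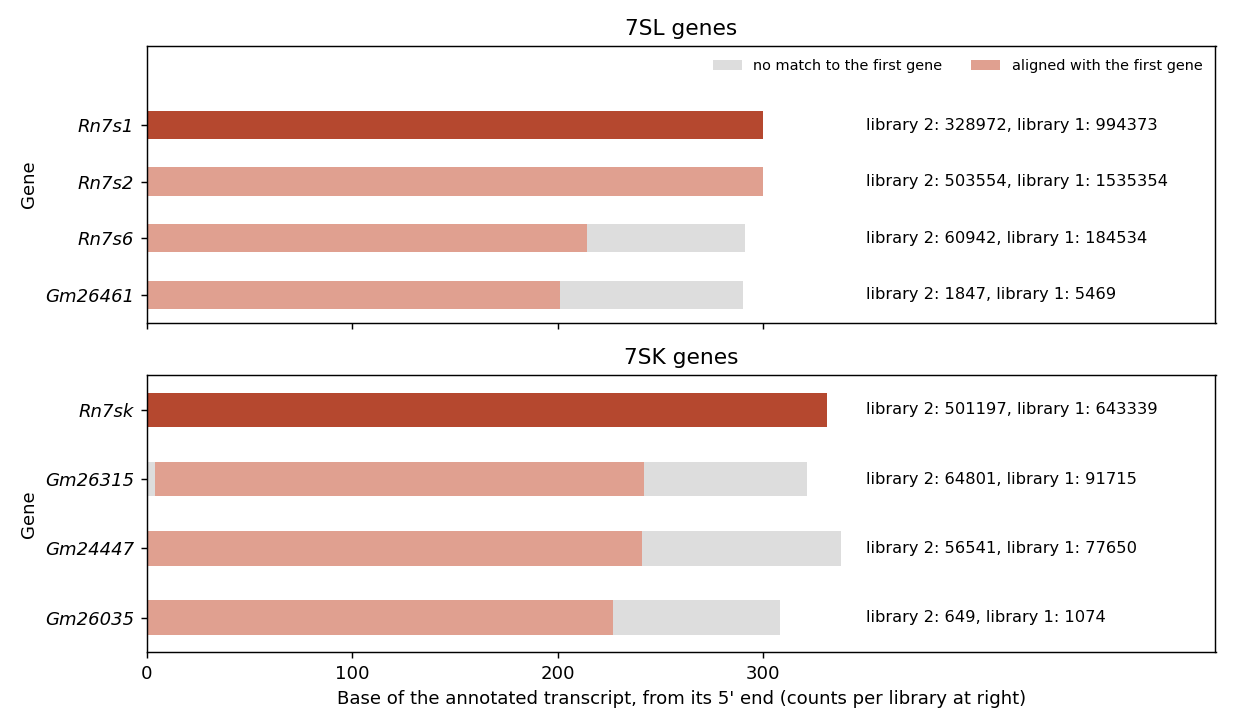
Annotated transcripts of 7SL genes (upper panel) and 7SK genes (lower panel), in bases from the 5′ end. Coloured bars are aligned with the first gene of the panel, grey bars are not, and the raw counts of library 2 and library 1 stand at the right; Rn7s2 matches Rn7s1 over all 300 bases and Rn7s6 over the first 214.

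Small genes annotated as miRNAs lie inside both 7SL genes and took almost none of these counts. Within Rn7s1, Gm47287 had 1 count in each library and Gm47295 had 48 in library 2 and 1 in library 1. Within Rn7s2, Gm47299 had 2 and 6 counts and Gm47305 had 1 in each library. The nearest separate genes of Rn7s1 were Rps29, a ribosomal protein gene 109 bp away with 4564 counts in library 2 and 7578 in library 1, and Lrr1. Those of Rn7s2 were Nemf, a ribosome quality control gene with 4555 and 6590 counts, and the pseudogene Gm18113.

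7SK stood below 7SL in both libraries, by less in library 2 than in library 1. Rn7sk was at 11859 CPM in library 2, against 9200 CPM in library 1, with a mean of 10529 ± 1880 CPM (SD, n = 2). Per kb of exon, 7SL exceeded 7SK 1.83 times in library 2 (interval 1.83 to 1.84) and 4.34 times in library 1 (interval 4.33 to 4.35). This ratio does not depend on the scaling between libraries, and it was 2.37 times smaller in library 2. The partial copies Gm26315 and Gm24447 had 64801 and 56541 counts in library 2, and 91715 and 77650 in library 1. Together they had 0.242 counts for each of Rn7sk in library 2 and 0.263 in library 1. The nearest separate genes, the kinase gene Ick and the noncoding C920006O11Rik 281 bp away on the other strand, had 471 and 93 counts in library 2 and 475 and 38 in library 1.

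The RNA of RNase P stood in nearly the same ratio to 7SK in both libraries, and the RNA of RNase MRP did not. Rpph1 (chromosome 14, 50807449 to 50807767, minus strand) was at 6830 CPM in library 2, against 5291 CPM in library 1, with a mean of 6061 ± 1089 CPM (SD, n = 2). Per kb it stood at 0.598 of Rn7sk in library 2 (interval 0.595 to 0.600) and at 0.597 in library 1 (interval 0.594 to 0.599), so these intervals overlapped. Rmrp was at 1914 CPM in library 2, against 1291 CPM in library 1, with a mean of 1603 ± 440 CPM. Per kb it stood at 0.190 of Rn7sk in library 2 and 0.165 in library 1, a difference beyond counting error, and at 0.318 and 0.277 of Rpph1. RNase P and RNase MRP share most of their protein subunits, while their RNAs differ.

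Both of these RNA genes overlap protein-coding genes, which had few counts. Rmrp is annotated once as a ribozyme of 271 bases (chromosome 4, 43492788 to 43493058) and once as a long noncoding RNA of 281 bases, which holds the first with 5 bases added at each end. The shorter gene had 57691 counts in library 2 and 62332 in library 1, and the longer one 23194 and 27967, and their sum is used here. The shorter gene had 2.49 times the counts of the longer in library 2 and 2.23 times in library 1. Ccdc107 shares 124 exon bases with Rmrp in the opposite orientation and had 319 counts in library 2, against 588 in library 1. Whether the counting used strand is not given, so reads of the pair cannot be told apart. The neighbours outside were Sit1 and Arhgef39, with 79 and 119 counts in library 2 and 143 and 235 in library 1. Rpph1 shares 233 of its 319 bases with an exon of Ccnb1ip1 on the same strand, and Ccnb1ip1 had 49 counts in library 2 and was at 0 in library 1. Parp2, a DNA repair enzyme gene that starts 74 bp from Rpph1 in the opposite direction, had 660 counts in library 2 and 1364 in library 1. The RNase P related genes Rprl1, Rprl2 and Rprl3 had few counts, led by Rprl2 with 23 in each library.

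Terc was the exception to abundance. It had 39 counts in library 2 and 36 in library 1, or 0.923 CPM (exact Poisson interval 0.656 to 1.26) and 0.515 CPM (interval 0.361 to 0.713), with a mean of 0.719 ± 0.288 CPM (SD, n = 2). Its rank was 30304 in library 2 and 27968 in library 1. Per kb of exon, Terc was at 2.18 CPM in library 2, against 1.22 CPM in library 1, above 98.6% and 98.4% of the olfactory receptor genes. Those levels were 1.38 and 1.60 times the 95th percentile of the background. An annotated copy, 1600017P15Rik (81.1% identity over 395 bases), is covered by overlapping gene rows that had 3 and 7 counts in library 2 and 0 in library 1. The nearest genes, the pseudogene Gm21960 and the snRNA gene Gm24136, had 18 and 18 counts in library 2 and 0 and 84 in library 1. Tert, the reverse transcriptase of telomerase, was at 4.61 CPM in library 2, against 2.26 CPM in library 1. Per kb Tert was at 0.805 and 0.394 CPM, under the 95th percentile of the background in both libraries. The ratio of Terc to Tert thus has a denominator within the range of the background. Terc exceeded Tert per kb 2.71 times in library 2 (interval 1.87 to 3.84) and 3.09 times in library 1 (interval 2.09 to 4.46). These intervals overlapped, so no difference in this ratio was detectable at this depth.

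Malat1 and Neat1, which lie next to each other on chromosome 19, differed widely in level and little between the libraries. Malat1 (5795690 to 5802672, minus strand, 6983 bases) was at 21377 CPM in library 2, against 18737 CPM in library 1, with a mean of 20057 ± 1867 CPM (SD, n = 2). Neat1 (5824708 to 5845478, minus strand, 20771 bases) was at 1807 CPM in library 2, against 1439 CPM in library 1, with a mean of 1623 ± 261 CPM. Malat1 thus held 2.14% of all counts in library 2 and 1.87% in library 1. Per kb of exon, Neat1 was at 0.0284 of Malat1 in library 2 (interval 0.0282 to 0.0286) and 0.0258 in library 1 (interval 0.0256 to 0.0260). Neat1 is annotated with a long transcript of 20771 bases, a short form of 3004 bases and shorter ones, which a count per gene cannot separate, and its level per kb is spread over the full length. The small genes annotated inside them had 0 to 2 counts in each library. These were Gm27694 and Gm37376 in Malat1, and Gm27533, Gm27505 and Gm28006 in Neat1. Of the genes next to them, Gm27702 had 2 counts in library 2 and 17 in library 1, and Frmd8os had 0 in both.

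**Figure D2:**
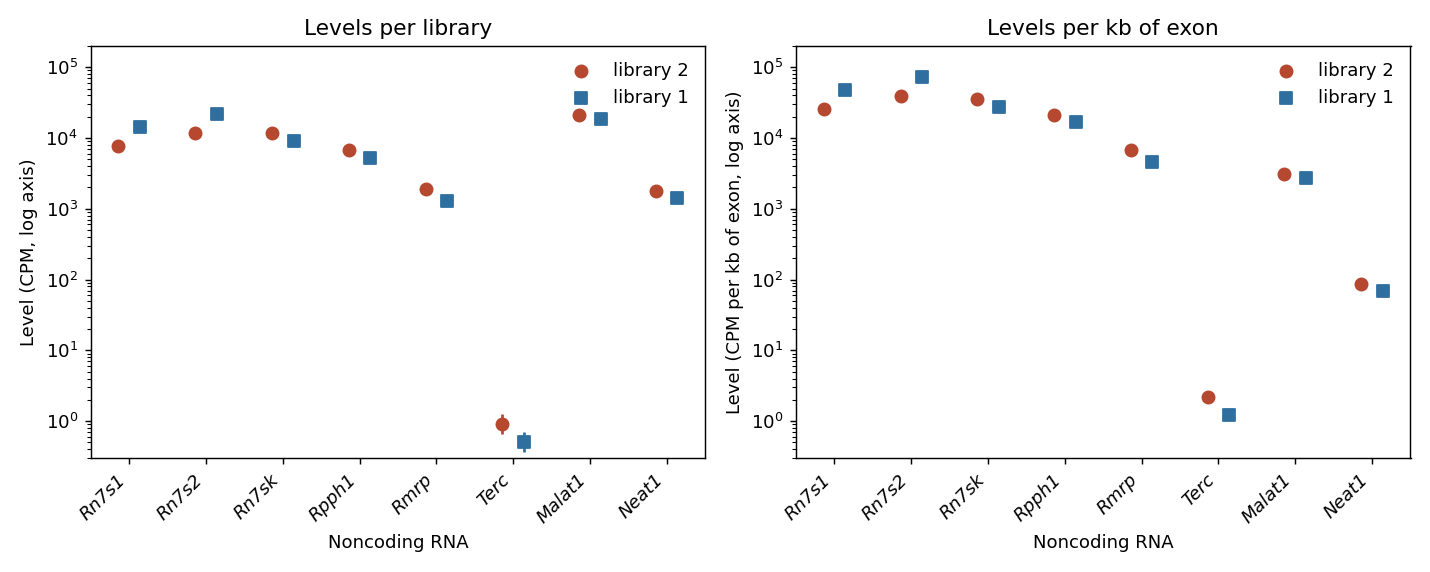
Levels of the 8 noncoding RNAs in library 2 (circles) and library 1 (squares), in CPM with exact Poisson intervals (left) and in CPM per kb of exon (right), both on log axes. Terc lies under 1 CPM, the other RNAs lie at 1291 CPM or above in both libraries, and the 7SL genes are the members that were lower in library 2.

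All 8 RNAs together held 6.35% of the counts in library 2 and 7.21% in library 1, with a mean of 6.78 ± 0.61% (SD, n = 2). Within that sum, 7SL made up 31.0% in library 2 and 50.2% in library 1, and Malat1 with Neat1 made up 36.5% and 28.0%. 7SK took 18.7% and 12.8% of it, and the RNase P and MRP RNAs 13.8% and 9.12%. Ordered per kb of exon, library 2 ran Rn7s2, Rn7sk, Rn7s1, Rpph1, Rmrp, Malat1, Neat1 and Terc, and library 1 had the same order except that Rn7s1 stood above Rn7sk. Per kb the mean levels were 56452 ± 23671 CPM for Rn7s2, 36674 ± 15172 for Rn7s1 and 31811 ± 5679 for Rn7sk (SD, n = 2). Rn7s2 was above both others in each library. Rn7s1 and Rn7sk changed places between the libraries, and their means did not differ beyond their spread. The separate places of Rn7s1 and Rn7s2 rest on how counts were divided between identical sequences, so they do not rank either gene against Rn7sk. The sum of both 7SL genes exceeded Rn7sk per kb 1.83 times in library 2 and 4.34 times in library 1. Below Rn7sk in mean level came Rpph1 at 18999 ± 3413, Rmrp at 5703 ± 1566, Malat1 at 2872 ± 267, Neat1 at 78.1 ± 12.6 and Terc at 1.70 ± 0.68 CPM per kb. The short RNAs stood at both ends of this order, since Terc has 423 bases and Rn7sk 331. The G and C content ranged from 58.0% in Rn7sk to 67.1% in Terc for the short RNAs, and was 42.5% in Malat1 and 47.3% in Neat1.

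**Figure D3:**
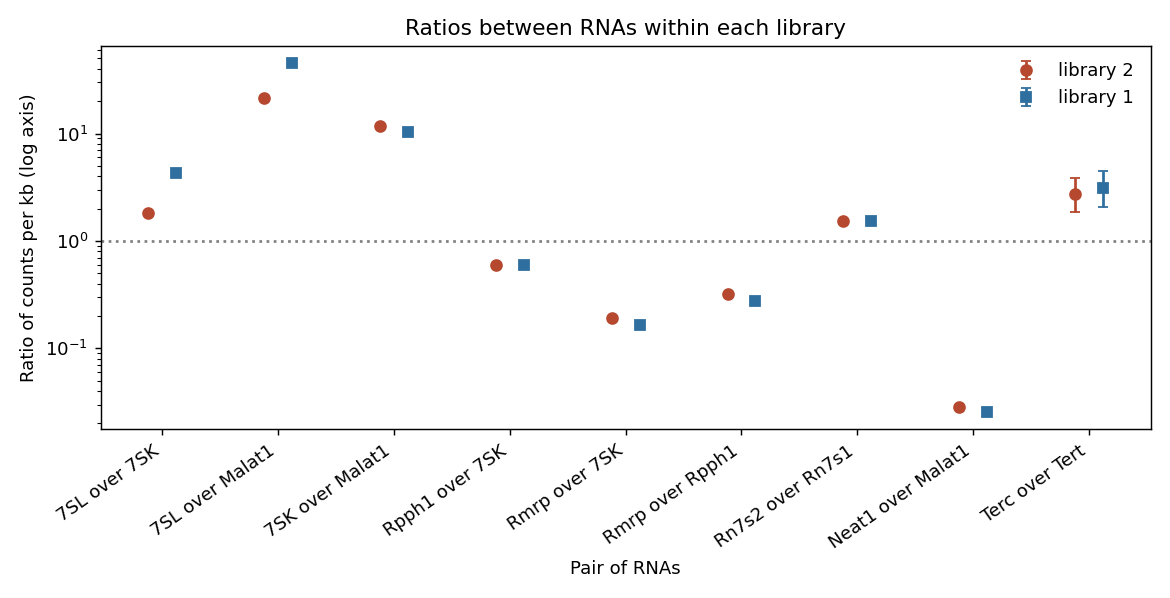
Ratios of counts per kb between pairs of RNAs within library 2 (circles) and library 1 (squares), on a log axis, with exact 95% intervals for counting error. The ratios of 7SL to 7SK and to Malat1 were lower in library 2 (1.83 against 4.34 and 21.4 against 44.9), while those of Rpph1 to 7SK and of Rn7s2 to Rn7s1 were nearly alike.

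To place these values, the genes of most similar level in both libraries were looked up by distance on the log2(CPM + 1) scale. For Rmrp they were Eef2, an elongation factor of translation (1753 CPM in library 2, against 1236 CPM in library 1), and the actin gene Actg1 (2229 and 1379 CPM). Neat1 lay closest to Tnfaip3, an inhibitor of NF-κB signalling (1621 and 1359 CPM), and to Eef2. At the upper end no gene was close, and the nearest to Malat1 and to Rn7s2 were the mitochondrial ribosomal RNA gene mt-Rnr1 (33689 and 33781 CPM) and Gm23935 (37117 and 42298 CPM). Rn7s1 lay nearest to the ribosomal RNA gene CT010467.1 and to Actb, Rn7sk to Gm10800 and CT010467.1, and Rpph1 to ENSMUSG00000118642 and Actb. Terc had exactly the level of Aqp2, a water channel of the kidney, and of AC134331.2, among 3 genes tied at its counts. Over 2 libraries such likeness is a matter of level only.

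Relative to the other genes of the table, 7SL was low in library 2 and the other abundant RNAs were close to the middle. Ratios of library 2 over library 1 were scaled by TMM (the trimmed mean of M-values) over the 30356 genes that reached 1 CPM in either library, and 7 of the 8 RNAs passed this filter, all but Terc. The log2 ratio was -1.37 for Rn7s1 (counting interval -1.38 to -1.36) and -1.38 for Rn7s2 (interval -1.39 to -1.38). It was -0.13 for Rn7sk, -0.13 for Rpph1, 0.07 for Rmrp, -0.31 for Malat1 and -0.17 for Neat1. With 1 library on each side these differences have no replicate check and were not tested, and they compare replicates, not conditions.

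At least 2-fold apart were 2 of the 7 RNAs, both lower in library 2, against 12.6% of all tested genes that were at least 2-fold lower and 24.5% at least 2-fold higher (37.1% in either direction). Rn7s1 and Rn7s2 are 1 sequence, so this is 1 difference and not 2. Among the 1572 genes that averaged 100 CPM or more, 33.0% were at least 2-fold lower in library 2 and 4.90% at least 2-fold higher (37.8% in either direction). Their median log2 ratio was -0.68, against 0.15 over all tested genes. The 7SL ratios lay between the 5th percentile (-2.03) and the 25th (-1.16) of those abundant genes. The 5 other tested RNAs lay above the median of the abundant genes, and the 7 RNAs had a median of -0.17.

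The direction for most members depended on how the libraries were scaled. With total counts, which are the CPM values above, the log2 ratios were 0.37 for Rn7sk and Rpph1, 0.57 for Rmrp, 0.19 for Malat1 and 0.33 for Neat1, so 4 of these 5 changed sign against TMM. Total counts moved the median of all tested genes as well, to 0.65. Of the genes at least 2-fold apart, 66.1% were higher in library 2 with TMM (7444 against 3825 lower), and DESeq2 size factors gave 6763 higher and 4516 lower. The share higher was 87.6% with total counts, 82.5% with the upper quartile, 88.1% with protein-coding totals and 87.3% with totals without the 8 RNAs. A scaling moves all genes by nearly the same amount, so a member's place against the median of all tested genes is a single observation. With TMM all 7 tested members, 2 of them the identical 7SL genes, lay below that median. Of the genes that averaged 100 CPM or more, as all 7 did, 81.1% were below 0 with TMM. The median of those abundant genes was -0.68. Terc had a log2 ratio of 0.33 with a counting interval of -0.35 to 1.04, which spans the median of all tested genes. The 7SL genes had a ratio below 0 under all 6, ranging from -1.49 to -0.85, but it was under 2-fold with total counts (-0.87 for Rn7s1 and -0.88 for Rn7s2).

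**Figure D4:**
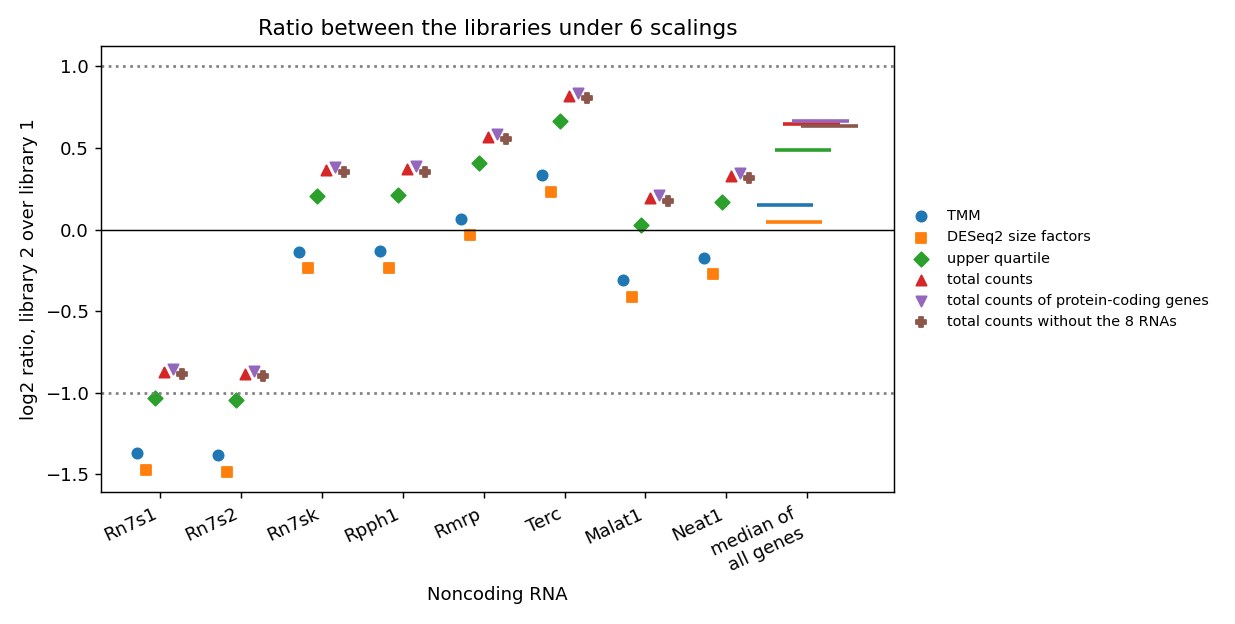
Log2 ratio of library 2 over library 1 for each RNA under 6 scalings (markers), with the median of all tested genes under each scaling as a line at the right and dotted lines at 2-fold. Rn7s1 and Rn7s2 were below 0 under all 6 scalings, whereas Rn7sk, Rpph1, Rmrp, Malat1 and Neat1 lay on both sides of 0.

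The counts for the gene lists that follow also depended on the scaling. With total counts, 38.6% of all tested genes were at least 2-fold higher in library 2 and 5.47% at least 2-fold lower, against the 24.5% and 12.6% with TMM. Ratios named below are with TMM unless total counts are given. Of 10 genes of the signal recognition particle and its receptor, 0 were at least 2-fold apart under either scaling, against 37.1% of all tested genes with TMM, and their median log2 ratio was -0.54, or -0.04 with total counts. Per kb the highest were Srp14, which sits on the Alu domain of 7SL (47.9 CPM in library 2, against 60.4 CPM in library 1), Srp72 (120 and 118 CPM) and Srp68 (59.2 and 38.2 CPM). Of 8 genes of the 7SK particle and P-TEFb, 2 were at least 2-fold lower in library 2 and none higher, against 12.6% lower among all tested genes, and the median was -0.71, or -0.21 with total counts. Hexim1, the protein that inhibits P-TEFb when bound to 7SK, was at 30.0 CPM in library 2, against 69.5 CPM in library 1 (log2 ratio -1.71), and Mepce, which caps 7SK, had a log2 ratio of -1.35. With total counts only Hexim1 was past 2-fold (-1.21), and Mepce was at -0.85. Cdk9, the kinase of P-TEFb, was at 46.0 CPM in library 2, against 54.0 CPM in library 1.

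Among 11 protein genes of RNase P and RNase MRP, 2 were at least 2-fold higher in library 2 (24.5% of all tested genes) and none lower, with a median log2 ratio of -0.06, or 0.44 with total counts. They were Rpp38, which rested on 377 counts in library 2 and 91 in library 1 (log2 ratio 2.26), and Rpp25 (1.16), and Pop5 and Pop4 had ratios of -0.14 and 0.10. With total counts Rpp40 passed 2-fold as well. Of 8 telomerase genes, 0 passed 2-fold with TMM, but 4 were at least 2-fold higher with total counts (Tert, 1.02, Nhp2, 1.08, Dkc1, 1.11, and above them Gar1). Gar1, an H/ACA protein, came just under 2-fold with TMM at a log2 ratio of 1.00 (18.4 CPM in library 2, against 6.51 CPM in library 1), Nhp2 had 0.58 and Nop10 0.11, and the median was 0.32, or 0.82 with total counts. The 21 genes of RNA polymerase III and its factors included 1 that was at least 2-fold higher (Polr3g, 1.02) and 3 at least 2-fold lower (Snapc5, -1.11, Maf1, -1.08, and Polr3c, -1.05), with a median of -0.21, or 0.29 with total counts. With total counts Polr3g alone was past 2-fold, with 1 higher and 0 lower, and the other 3 were at -0.61, -0.58 and -0.55; with TMM 12.6% of all tested genes were lower. Maf1 encodes a repressor of RNA polymerase III. Ssb, whose La protein binds new transcripts of that polymerase, was at 99.7 and 84.5 CPM, and Bdp1, a part of its initiation factor, at 153 and 113 CPM.

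The log2 ratio was below 0 for 9 of 10 genes listed for paraspeckles and 10 of 10 nuclear speckle genes with TMM. With total counts it was below 0 for 5 and 8 of them. Of the genes that averaged 100 CPM or more, 81.1% were below 0 with TMM and 60.4% with total counts, and of all tested genes 44.8% and 26.9%. Of the 10 genes listed for paraspeckles, 1 was at least 2-fold higher (Tnks1bp1, 1.21) and 2 at least 2-fold lower, among them Rbm14 (-1.44). Their median was -0.47, or 0.03 with total counts. Whether Tnks1bp1 belongs to paraspeckles was not checked, so its ratio is given for that gene alone. With total counts Tnks1bp1 alone was past 2-fold. Hnrnpk was at 446 CPM in library 2, against 391 CPM in library 1, Sfpq at 296 and 412 CPM and Nono at 131 and 114 CPM. None of the 10 nuclear speckle genes passed 2-fold, the median was -0.73, or -0.23 with total counts, and Son, a core speckle protein, came closest (522 and 734 CPM, -0.99). Srrm2, another core protein, was at 768 and 902 CPM, and the splicing factors Srsf5 and Srsf2 at 185 and 124 CPM in library 2 and 234 and 143 CPM in library 1. Of 24 other long noncoding RNAs, 2 were at least 2-fold lower (Lncpint, -1.41, and Dleu2, -1.02), against 12.6% of all tested genes, with a median of -0.17, or 0.33 with total counts. With total counts 0 were lower and 2 were at least 2-fold higher (Snhg3, 1.25, and Meg3, 1.23). Per kb, Meg3 (0.458 CPM in library 2 and 0.195 CPM in library 1) lay under the 95th percentile of the background in both libraries. Gas5 was at 108 and 113 CPM, Snhg15 at 68.4 and 81.5 CPM and Snhg3, a snoRNA host, at 36.6 and 15.4 CPM.

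Small noncoding RNAs outside the 8 had the lowest medians of the 10 lists. All 3 vault and Y RNAs, also made by RNA polymerase III, were at least 2-fold lower in library 2 under both scalings. Among all tested genes 12.6% were with TMM and 5.47% with total counts. Among the members made by the same polymerase, Rn7s1 and Rn7s2 had ratios of -1.37 and -1.38 with TMM. Those of Rn7sk, Rpph1 and Rmrp were -0.13, -0.13 and 0.07. The vault RNA Vaultrc5 (143 bases) was at 62.4 CPM in library 2, against 271 CPM in library 1 (log2 ratio -2.62, or -2.12 with total counts), Rny3 at 3.38 and 13.6 CPM (-2.50) and Rny1 at 1.94 and 4.68 CPM (-1.76). Of 12 tested snRNAs and U3 snoRNAs, 4 were at least 2-fold lower and none higher, against 12.6% lower among all tested genes and 33.0% among those that averaged 100 CPM or more, with a median of -0.78, or -0.28 with total counts. Rnu1a1, a U1 snRNA gene of 164 bases, was at 122 and 363 CPM (-2.07), and Rnu2-10, a U2 gene, at 110 and 157 CPM (-1.01). Rnu1b6 (-1.41) and Rnu5g (-1.52) were the other members past 2-fold, and with total counts Rnu1a1 and Rnu5g remained. Rnu3a, the U3 snoRNA that guides precursor ribosomal RNA cleavage, was at 149 and 131 CPM (-0.31). Copies of U1, U2 and U3 genes are near-identical, so single members are uncertain. Relative to 7SK within the same library, Vaultrc5 stood at 0.0122 per kb in library 2 and 0.0682 in library 1.

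**Figure D5:**
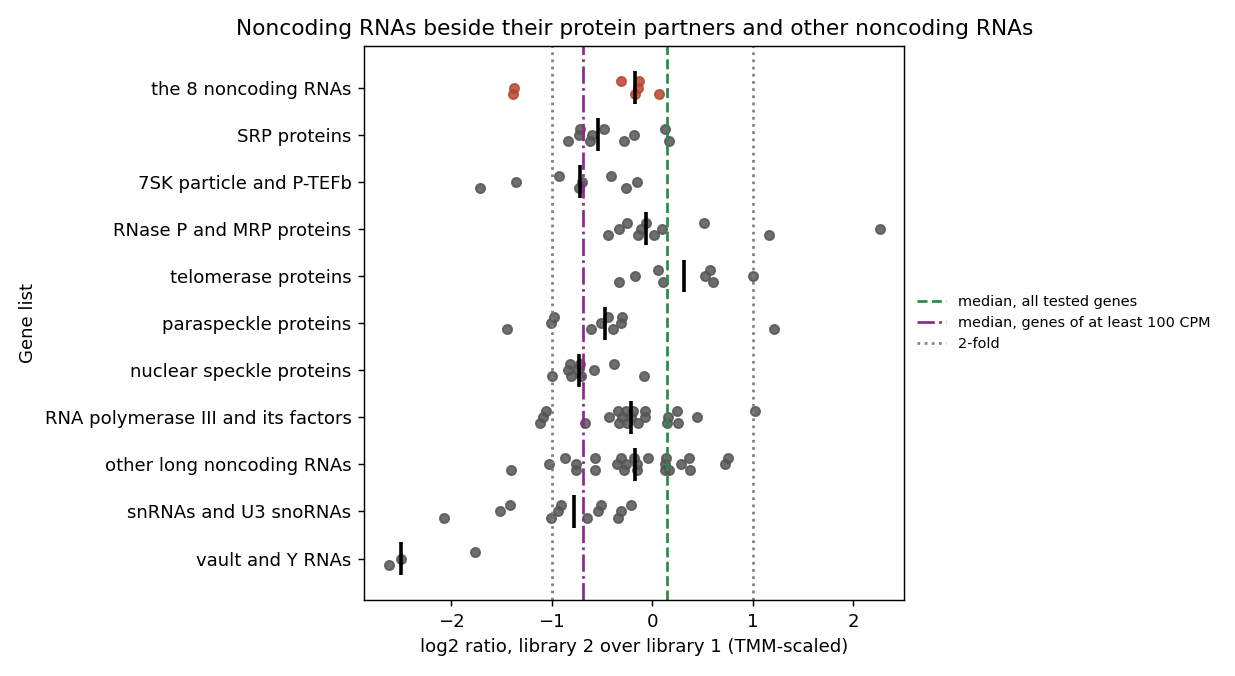
TMM-scaled log2 ratio of library 2 over library 1 for the tested noncoding RNAs (top row) and the genes of each list, with the row median as a black line, the medians of all tested genes and of genes of at least 100 CPM as dashed lines, and 2-fold as dotted lines. The pair at the left of the top row is Rn7s1 and Rn7s2, and Vaultrc5 and Rny3 of the vault and Y RNAs lie farthest to the left.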

How the data were processed

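RNA sequencing counts from 2 samples of 1 group were used. The authors deposited raw counts for each Ensembl gene. Per the submitters' processing notes, the tools were HISAT2, StringTie, SAMtools and Trimmomatic, on GRCm38. How reads with several matches were treated, whether strand was used and the annotation release were not given in the sources, so copies and overlapping genes cannot be told apart. The column with number 2 is library 2, and the other, unnumbered, is library 1.

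Symbols were matched for 55141 of 55487 rows, rows sharing a symbol were summed, and a total row was left out. Lengths, the union of exons, came from GENCODE M21. CPM uses the library total; exact Poisson, binomial and conditional binomial intervals (scipy 1.17.1) cover counting error. A floor of 3 counts was 0.0710 CPM in library 2 and 0.0429 CPM in library 1. Log2 ratios used edgeR 4.0.16 TMM factors and a prior count of 1, and the calculation was tested on simulated data. TMM changes each log2 ratio by -0.50 against total counts, or less where counts are few. No p-value was computed, since 1 group of 2 leaves no comparison. Copies were found with BLAST+ 2.17.0 (at least 80% identity over 80% of the length); partial copies (95% over 60%) and the scaling without the 8 RNAs were added after seeing the data, as were the ratios to Malat1 and to 7SK other than that of 7SL.

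The members, lists and background genes were chosen with earlier results of these data known. Named were all members, their copies, overlapping and neighbouring genes, the 2 genes nearest in level, and in each of 10 lists the 3 genes highest per kb and the largest ratio at 10 CPM or more; Mepce, Rpp25, Polr3g, Maf1, Polr3c, Tnks1bp1, Dleu2, Meg3, Rpp40, Dkc1, Rnu1b6 and Rnu5g were named after their values were seen, because they passed 2-fold with TMM or total counts. Some genes and sequences that this rule covers are not reported here.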

Additional observations from a re-analysis of the deposited data

How the results depend on the processing

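The number of the 8 RNAs at least 2-fold apart was 2 with TMM, with DESeq2 size factors, with the upper quartile, without a filter, with at least 10 counts in both libraries, with a prior count of 5 and with a limit of 1.5-fold. It was 0 with total counts, 0 with total counts of protein-coding genes and 0 with total counts without the 8 RNAs, an alternative added after seeing the data, because these scalings put the 7SL ratio under 2-fold. Over all genes, 11269 were at least 2-fold apart, against 24649 without a filter, which tests 50713 genes, and 18245 with a limit of 1.5-fold. Of the 117 tested genes of the 10 lists, 20 were at least 2-fold apart with TMM (4 higher and 16 lower in library 2). Among all tested genes, 37.1% were (24.5% higher and 12.6% lower). With total counts 17 of the 117 were (11 higher and 6 lower), against 38.6% higher and 5.47% lower among all tested genes. Of the 117, 10 were past 2-fold in the same direction under both scalings. The share of counts held by the 8 RNAs was 6.78% and ranged from 6.35 to 7.21% with 1 library left out, and was 7.65% of counts outside the mitochondrial genome. The ratio of 7SL to 7SK per kb was 1.83 in library 2 and 4.34 in library 1, with the same values when full-length copies were added. It was 1.97 and 4.65 with Rn7s6 added to 7SL, and 1.58 and 3.69 with partial copies added to both, and stayed lower in library 2 each time. No paired analysis was possible because both samples belong to 1 group. Of the 8 RNAs, depth limits only Terc, and the spread between replicates is known from 2 libraries alone. Some genes of the lists also rest on few counts, such as Rpp25 with 51 in library 2 and 26 in library 1.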
